A study of Mus musculus with 24 samples.

Results

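Splenic B cells of C57BL/6 mice that lack Tet2 and Tet3 were compared between a CD93-positive and a CD93-negative population by RNA-seq. The members are the 3 CD93-positive and the 3 CD93-negative libraries labelled Tet2/Tet3-deficient (DKO below), 6 of the 24 samples listed for the series. The 3 CD93-positive and 3 CD93-negative libraries labelled control were used beside them. All 4 groups hold primary B cells taken freshly from the spleen, and no treatment, age or time is given for any of them. The labels name the genotype only, not the alleles, the Cre driver or whether each library comes from its own mouse, so the spread between libraries may be technical. CD93-negative subsets gated on CD21 and CD23 make up 12 further samples, which are not analysed here.

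Tet2 and Tet3 are enzymes that convert 5-methylcytosine in DNA to oxidised forms, a step on the way to demethylation. CD93 is a surface glycoprotein that B cells carry when they leave the bone marrow as immature and transitional cells, lose as they become mature follicular or marginal zone cells, and carry again as antibody-secreting plasma cells. Immature cells that had recently rearranged their receptor genes express the recombinase and the surrogate light chain, whereas follicular cells express CD23 (Fcer2a), CD21 (Cr2) and much MHC class II. Plasma cells need a large endoplasmic reticulum, and the unfolded protein response supplies its chaperones.

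The unit is FPKM, fragments per kilobase of transcript, scaled to the mapped fragments of the library. The 2 populations stand in 2 tables that the authors normalized separately, so population and table cannot be told apart. A level set across the tables is therefore a description with no test. Each library was divided by a factor that brings its upper quartile, over the 11317 genes that reached 1 FPKM in 3 or more of the 6 DKO libraries, to a common value, and all levels below are these rescaled FPKM. Differences between groups are differences of the mean of log2(rescaled FPKM + 1), which understates the change of low genes. A gene is called apart where that difference is at least 1 log2 unit and the 3 and 3 libraries do not overlap. One comparison between the populations can be tested, since a factor shared by a table leaves it nearly unchanged. It is the deficiency effect (DKO minus control) in CD93-positive cells minus the same effect in CD93-negative cells, fitted with limma over the 12 libraries and adjusted by Benjamini and Hochberg over 11881 genes, with a threshold of 0.05. The same fit tested the effect within each population, where the deficiency raised 14.7% and lowered 17.7% of the genes in CD93-negative cells and raised 14.7% and lowered 16.1% in CD93-positive cells. On the log2 scale the difference of effects equals the DKO difference between the populations less the control difference.

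Several properties of the libraries move with the populations. The deposited FPKM of DKO CD93-positive replicate 3 summed to 309359, against 523898 to 597968 in the other 5 CD93-positive libraries and 342368 to 463987 in the 6 CD93-negative ones. Its log2 values correlated with replicates 1 and 2 at r = 0.933 and 0.939 across genes, below the 0.966 between replicates 1 and 2. All 6 CD93-negative libraries showed the expression pattern of male mice and all 3 DKO CD93-positive libraries that of female mice. Among the control CD93-positive libraries, replicates 1 and 2 were male and replicate 3 was female. In DKO cells, sex therefore cannot be told apart from population either. Sex does not cancel in the tested difference of effects. It differed between DKO and control libraries in CD93-positive cells but not in CD93-negative cells. Globin genes took 1.60% to 4.09% of the FPKM in DKO CD93-positive libraries, 4.21% in the female control and 15.8% and 16.3% in the male controls of that population, and at most 0.0636% in CD93-negative libraries. The fit was therefore repeated without the 2 male control libraries, a choice made after seeing the data. That repeat leaves 1 control CD93-positive library. It sets an effect in female cells against an effect in male cells, so sex and population cannot be told apart there. A sex term in the fit rests on the same female control library and gives the same effect sizes, so the same holds for it.

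Of the 11317 genes, 1034 (9.14%) were apart with the higher level in DKO CD93-positive cells and 858 (7.58%) with the higher level in DKO CD93-negative cells. The median difference over all these genes was -0.02 log2 units. Both shares of all genes are to be read beside every count of list members apart in DKO below. In bulk samples, fewer cells of a type and less RNA per cell cannot be told apart, for this and every result below. In control cells, 1188 genes (10.5%) were apart as higher and 1106 (9.77%) as lower in CD93-positive cells, with a median of -0.10 (1949 and 565 with the authors' own scaling). Most of the DKO list was also apart in controls. Of the 1034 higher genes, 829 were higher and 1 was lower in controls, and of the 858 lower genes, 690 were lower and 1 was higher. The test found 426 genes (3.59%) whose deficiency effect was more positive in CD93-positive cells and 477 (4.01%) whose effect was more negative there, out of 11881. With the authors' own scaling these counts were 18 and 159, and the median effect over all genes moved from 0.04 to -0.37. With median-of-ratios scaling they were 313 and 615. Among the 1034 genes higher in DKO CD93-positive cells, 91 were in the first group and 157 in the second. The shares of 3.59% and 4.01% are to be read beside every count of list members called by this test below.

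**Figure D1:**
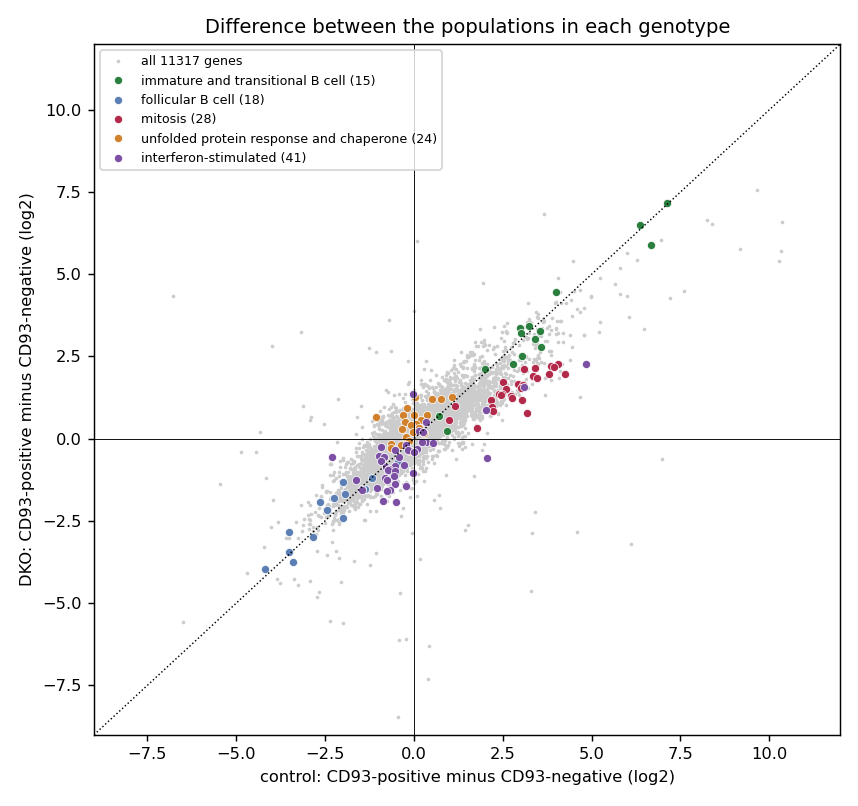
Difference between CD93-positive and CD93-negative cells in controls (horizontal axis) and in DKO (vertical axis), in log2 units, 1 grey point per gene, with 5 gene lists in colour and the dotted line marking equal differences. Immature and follicular genes lie near the line at its 2 ends, mitosis genes lie below it, and unfolded protein response genes lie mostly above it.

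The sorted marker followed its label. Cd93 stood at 3.83, 3.596 and 3.14 rescaled FPKM in DKO CD93-negative replicates 1 to 3 and at 41.2, 36.6 and 44.1 in DKO CD93-positive ones. The groups were well separated, by 3.20 log2 units in DKO and 3.01 in controls, and the deficiency effect did not pass the test of a difference, at 0.19 (SE 0.12, adjusted p = 0.38). The FPKM of Tet2 and Tet3 are per whole gene, and the labels do not name the deleted exons, so they cannot check the deletion. Tet2 stood at 9.87, 7.97 and 8.89 in DKO and 8.46, 8.31 and 9.48 in control CD93-negative cells. In CD93-positive cells it stood at 2.90, 1.94 and 2.84 in DKO and 2.73, 3.27 and 2.51 in controls. Both Tet2 and Tet3 were thus lower in CD93-positive cells of either genotype, with differences of -1.48 and -1.03 log2 units in DKO and -1.35 and -0.78 in controls, and Tet3 was apart in DKO but not in controls. Tet1 did not reach the filter, with at most 0.968 in any library.

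Igj, which encodes the J chain that joins IgM and IgA into polymers, had the largest level among the markers given for this comparison. It stood at 191, 208 and 209 in DKO CD93-negative replicates 1 to 3 and at 936, 792 and 1084 in DKO CD93-positive replicates 1 to 3. The control levels were 5.97, 10.02 and 9.81 in CD93-negative and 31.4, 25.5 and 32.9 in CD93-positive cells. None of the 4 groups overlapped, and both DKO groups lay above both control groups. The DKO populations differed by 2.19 log2 units, a ratio of means of 4.63, and the control populations by 1.71, a ratio of 3.48. The deficiency effect on Igj was 4.43 in CD93-negative and 4.92 in CD93-positive cells, and its difference, 0.48 (SE 0.25, adjusted p = 0.28), did not pass the threshold.

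Mki67, the proliferation antigen Ki-67, behaved differently. It stood at 34.4, 31.0 and 33.0 in DKO CD93-negative and 61.8, 51.5 and 57.0 in DKO CD93-positive libraries, a difference of 0.77 that is under 1 log2 unit although the libraries do not overlap. In controls it stood at 5.88, 7.48 and 7.62 (CD93-negative) and 73.4, 87.5 and 56.7 (CD93-positive), a difference of 3.19. The deficiency effect was more negative in CD93-positive cells, with a difference of -2.42 (SE 0.20, adjusted p = 1.0e-04). Cd86, a ligand of CD28 that activated B cells display, ran the other way. It stood at 16.9, 17.2 and 17.6 in DKO CD93-negative and 7.91, 7.496 and 5.84 in DKO CD93-positive libraries, a difference of -1.18 log2 units. Control CD93-negative cells had 11.5, 7.76 and 9.33 and control CD93-positive cells 3.73, 3.57 and 5.20. The order of means was therefore DKO CD93-negative, control CD93-negative, DKO CD93-positive and control CD93-positive, in which control CD93-negative and DKO CD93-positive libraries overlapped. The difference of the effect did not pass the threshold, at -0.16 (SE 0.22, adjusted p = 0.71).

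**Figure D2:**
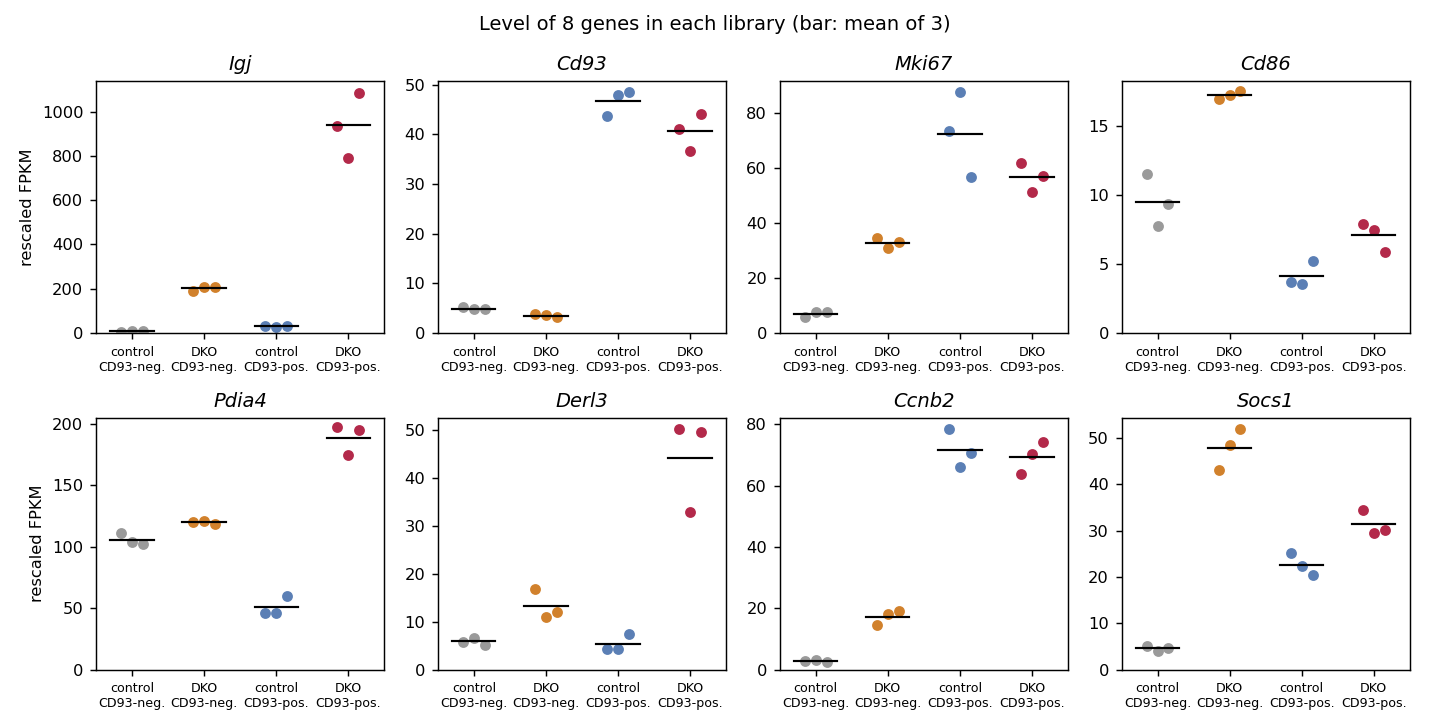
Rescaled FPKM (vertical axes, from 0) of 8 genes in each of the 12 libraries, 3 points per group from replicate 1 to 3 with a bar at the mean. Igj, Pdia4 and Derl3 are highest in the DKO CD93-positive group, Ccnb2 and Mki67 are high in both CD93-positive groups, and Socs1 and Cd86 are highest in the DKO CD93-negative group.

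Genes of the immature B cell had the largest median difference in DKO among the 28 gene lists, other cell types' markers aside. Of 15 listed genes that passed the filter, 13 were higher in DKO CD93-positive cells and none lower, with a median difference of 3.20 against -0.02 over all genes. The same number, 13, were higher in controls, with a median of 3.24. Igll1, a part of the surrogate light chain that stands in for a light chain in the pre-B cell receptor, was listed at 0 in all 3 DKO CD93-negative libraries and stood at 128, 157 and 143 in DKO CD93-positive ones. Vpreb1, its partner, stood at 0.361, 0 and 0.723 (CD93-negative) and at 97.9, 126 and 133 (CD93-positive). Rag1, the recombinase subunit that cuts receptor genes, stood at 0.0473, 0.146 and 0.152 (CD93-negative) and at 61.2, 67.4 and 67.6 (CD93-positive). These genes were close to absent in one population and abundant in the other, in every library.

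Dntt, which adds bases at the joints of rearranged heavy chain genes, stood at 1.58, 1.92 and 1.95 in DKO CD93-negative and 53.7, 65.0 and 63.5 in DKO CD93-positive cells. Il7r, a receptor subunit of early lymphoid cells that T cells also carry, stood at 3.11, 2.51 and 2.30 (CD93-negative) and 22.1, 22.7 and 27.4 (CD93-positive). Genes of pre-B cells, normally a bone marrow stage, were thus present in libraries labelled as spleen. The deficiency effect differed for 3 of 15 genes, all more negative in CD93-positive cells, against 4.01% of all genes (none with the authors' scaling). Rag1 had 61.2 to 67.6 in DKO against 96.6 to 112 in control CD93-positive cells, a difference of effects of -0.78 (SE 0.11, adjusted p = 0.002), and Il7r had 22.1 to 27.4 against 36.6 to 41.2, a difference of -0.80 (SE 0.18, adjusted p = 0.026). Il7r lost the call without the 2 male control libraries (adjusted p = 0.099). The last of them was Spn, which encodes CD43. Without the 2 male control libraries 1 gene of the list was called, more negative, and the 13 genes apart in DKO do not involve those libraries. The 13 were also apart without DKO CD93-positive replicate 3.

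The plasma cell list leaned to the DKO CD93-positive side. Of 20 genes that passed the filter, 7 were higher in DKO CD93-positive cells and none lower, with a median of 0.72, whereas in controls 5 were higher and 1 lower, with a median of 0.22. Prg2, the eosinophil major basic protein, which plasma cells also express, stood at 10.1, 11.3 and 13.9 in DKO CD93-negative and 109, 103 and 121 in DKO CD93-positive cells. It was listed at 0 in control CD93-negative cells and stood at 37.3, 29.6 and 17.2 in control CD93-positive ones. The deficiency effect on Prg2 was more negative in CD93-positive cells, against the lean of the list. The difference passed limma's test in 23 of 24 alternatives, and was -1.05 with a sex term. With a pseudocount of 5, the remaining alternative, its sign changed (limma adjusted p = 0.82). Control CD93-negative libraries were listed at 0, so the size and sign of this difference depend on the pseudocount. Derl3, which helps move misfolded proteins out of the endoplasmic reticulum, stood at 16.9, 10.96 and 11.98 (CD93-negative) and 50.3, 32.9 and 49.6 (CD93-positive) in DKO, against 5.82, 6.72 and 5.26 (CD93-negative) and 4.28, 4.24 and 7.45 (CD93-positive) in controls. Fkbp11, a prolyl isomerase of secretory cells, stood at 5.35, 4.23 and 6.44 (CD93-negative) and 18.7, 13.2 and 18.9 (CD93-positive) in DKO and at 3.96, 2.28 and 2.44 (CD93-negative) and 1.13, 2.03 and 0.724 (CD93-positive) in controls. The population differences of Derl3 and Fkbp11 were 1.66 and 1.496 in DKO and -0.17 and -0.78 in controls, where Fkbp11 was lower in CD93-positive cells without overlap. The tests gave 1.83 (SE 0.32, adjusted p = 0.0068) and 2.27 (SE 0.34, adjusted p = 0.0025). Without the 2 male control libraries the values were 1.37 (adjusted p = 0.067) and 2.65 (adjusted p = 0.0082), so that Derl3 missed the threshold. Of the 20 genes, 7 had a more positive and 3 a more negative effect in CD93-positive cells (1 and 2 under the authors' scaling).

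Prdm1, which encodes the plasma cell regulator Blimp-1, and Irf4 were not apart. Both, and Sdc1 after them, were looked up after their list's values were seen. Prdm1 stood at 3.35, 3.01 and 2.95 in DKO CD93-negative and 4.60, 3.38 and 4.01 in DKO CD93-positive libraries, and in controls at no more than 0.943. Irf4 stood at 37.5, 35.2 and 37.3 (CD93-negative) and 56.7, 53.0 and 55.5 (CD93-positive). Sdc1, which encodes CD138, stood at 5.51, 4.49 and 6.48 (CD93-negative) and 18.0, 15.2 and 16.7 (CD93-positive) in DKO and at 4.62, 5.87 and 5.29 (CD93-negative) and 15.3, 15.8 and 15.9 (CD93-positive) in controls. Its population difference was about the same in both genotypes (1.45 and 1.42), and the test of the effect gave 0.03 (SE 0.16, adjusted p = 0.92).

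Genes of the unfolded protein response and its chaperones had a more positive deficiency effect in CD93-positive cells. Of 24 genes, some of them (Xbp1, Pdia4, Hsp90b1 and others) also on the plasma cell list, 12 had a more positive deficiency effect in CD93-positive than in CD93-negative cells and none a more negative one, against 3.59% and 4.01% of all genes tested, with a median difference of 0.42 against 0.04 over all genes. The deficiency raised 17 of them in CD93-negative and 18 in CD93-positive cells (8 and 11 with the authors' scaling), with median effects of 0.48 and 1.16. Pdia4, a disulfide isomerase, had the lowest adjusted p of the named members. It stood at 111, 104 and 102 in control and 121, 121 and 119 in DKO CD93-negative libraries, but at 46.3, 46.6 and 59.6 in control and 198, 175 and 195 in DKO CD93-positive ones. The difference of effects was 1.70 (SE 0.13, adjusted p = 3.9e-05). Control CD93-positive cells had the lowest and DKO CD93-positive cells the highest level, with no overlap among the 4 groups.

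Creld2, a chaperone of secreted proteins, stood at 46.5, 49.3 and 48.7 in DKO CD93-negative and 141, 99.8 and 114 in DKO CD93-positive cells, while both control groups lay between 19.3 and 24.6. Its difference of effects was 1.24 (SE 0.17, adjusted p = 0.0016). Manf, a secreted stress factor, stood at 44.9, 50.4 and 46.5 (CD93-negative) and 121, 101 and 111 (CD93-positive) in DKO and at 19.4, 18.2 and 18.4 (CD93-negative) and 33.7, 29.0 and 35.1 (CD93-positive) in controls, with a difference of 0.44 (SE 0.12, adjusted p = 0.044) that missed the threshold without the 2 male control libraries (adjusted p = 0.2) and in most other alternatives (5 of 24 passed). Sdf2l1, another chaperone partner, was higher in DKO CD93-positive cells by 1.21 and did not pass the test of the effect, at 0.71 (SE 0.21, adjusted p = 0.065). Herpud1, a membrane protein of degradation at the endoplasmic reticulum, was higher in CD93-positive cells of both genotypes, by 1.27 and 1.08, and its difference of effects did not pass the test (adjusted p = 0.28). The members that follow were looked up after their values were seen. Xbp1, the transcription factor of this response, stood at 81.0, 80.7 and 84.5 in DKO CD93-negative and 167, 138 and 168 in DKO CD93-positive cells, with a difference of effects of 1.13 (SE 0.15, adjusted p = 0.0012). Hspa5, which encodes BiP, stood at 224, 228 and 225 (CD93-negative) and 332, 299 and 344 (CD93-positive), with 0.74 (SE 0.09, adjusted p = 8.6e-04). Ddit3, Atf4 and Ern1, which belong to the stress-signalling side of the response, had adjusted p = 0.45, 0.54 and 0.26.

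This list depends on how libraries are scaled. With the authors' scaling limma called none of the 24 genes (1 at an unadjusted p under 0.05), and the list median of -0.00 stood 0.36 above the all-gene median of -0.37. Quantile and median-of-ratios scaling each called 10 genes, all more positive. Without the 2 male control libraries 6 were called, with a median of 0.34, and without DKO CD93-positive replicate 3, 10 were called. The secretory pathway, the translocon and the coat and signal peptidase subunits that carry proteins out of the endoplasmic reticulum, shared the pattern at smaller size. Of 38 genes, 6 were higher in DKO CD93-positive cells and none lower, and 10 had a more positive effect in CD93-positive cells and none a more negative one (none of either with the authors' scaling, where 1 had an unadjusted p under 0.05, and 3 more positive without the 2 male control libraries). Ssr4, a translocon subunit, stood at 79.7, 74.1 and 80.2 in DKO CD93-negative and 217, 180.4 and 202 in DKO CD93-positive libraries, against 39.5, 50.4 and 50.7 (CD93-negative) and 79.5, 68.5 and 79.3 (CD93-positive) in controls, a difference of effects of 0.66 (SE 0.15, adjusted p = 0.023), which missed the threshold without the 2 male control libraries (adjusted p = 0.12). Sec61g, Spcs1 and Ssr2 were higher in DKO CD93-positive cells by 1.16, 1.196 and 1.16 and did not pass that test (adjusted p = 0.15, 0.09 and 0.083).

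The promoters of 4 of these genes are shown because they hold the endoplasmic reticulum stress element, the composite site through which this response is classically read. The letters searched, on both strands, were CCAAT, then 9 bases of any kind, then CCACG, in the 250 bases before each start in RefSeq (GRCm38.p6, not the build of the expression files). These letters stood in 35 of 27025 genes with such a window (0.13%), and in 7 of the 20 unfolded protein response genes whose symbols matched a window (35.0%). Of those 7, 5 had a more positive effect in CD93-positive cells, beside 12 of all 24 genes of the list. None of the 24 was called with the authors' scaling, and whether the letters go with the effect was not tested. Derl3, of the plasma cell list, held the letters too, and none of the 29 matched secretory pathway genes did. Matches are in capitals. The windows lie at chr15:88819396-88819645 (Creld2, plus strand), chr10:75893148-75893397 (Derl3, plus), chr2:34771840-34772089 (Hspa5, plus) and chr10:86705445-86705694 (Hsp90b1, minus). Hsp90b1 holds 2 matches.
Creld2: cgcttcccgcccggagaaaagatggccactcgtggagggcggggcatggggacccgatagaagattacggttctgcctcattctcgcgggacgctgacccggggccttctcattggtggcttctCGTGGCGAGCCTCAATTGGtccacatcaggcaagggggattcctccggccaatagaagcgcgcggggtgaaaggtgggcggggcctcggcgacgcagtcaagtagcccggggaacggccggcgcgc
Derl3: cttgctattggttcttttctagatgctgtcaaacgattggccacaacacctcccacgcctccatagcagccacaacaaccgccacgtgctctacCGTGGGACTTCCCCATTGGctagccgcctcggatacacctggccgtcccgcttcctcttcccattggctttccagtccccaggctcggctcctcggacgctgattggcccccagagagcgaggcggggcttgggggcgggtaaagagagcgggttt
Hspa5: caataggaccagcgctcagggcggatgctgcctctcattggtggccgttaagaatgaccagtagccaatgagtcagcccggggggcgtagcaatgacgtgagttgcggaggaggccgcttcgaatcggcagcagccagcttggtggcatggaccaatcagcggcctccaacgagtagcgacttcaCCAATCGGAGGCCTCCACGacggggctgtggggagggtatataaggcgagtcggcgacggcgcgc
Hsp90b1: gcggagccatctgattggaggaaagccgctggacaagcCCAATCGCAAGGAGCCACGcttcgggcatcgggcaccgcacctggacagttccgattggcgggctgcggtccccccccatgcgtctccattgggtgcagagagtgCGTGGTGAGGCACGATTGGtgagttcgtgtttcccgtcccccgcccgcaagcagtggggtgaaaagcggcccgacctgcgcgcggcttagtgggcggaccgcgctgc
A match describes these letters only and is not a measured binding site.

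**Figure D3:**
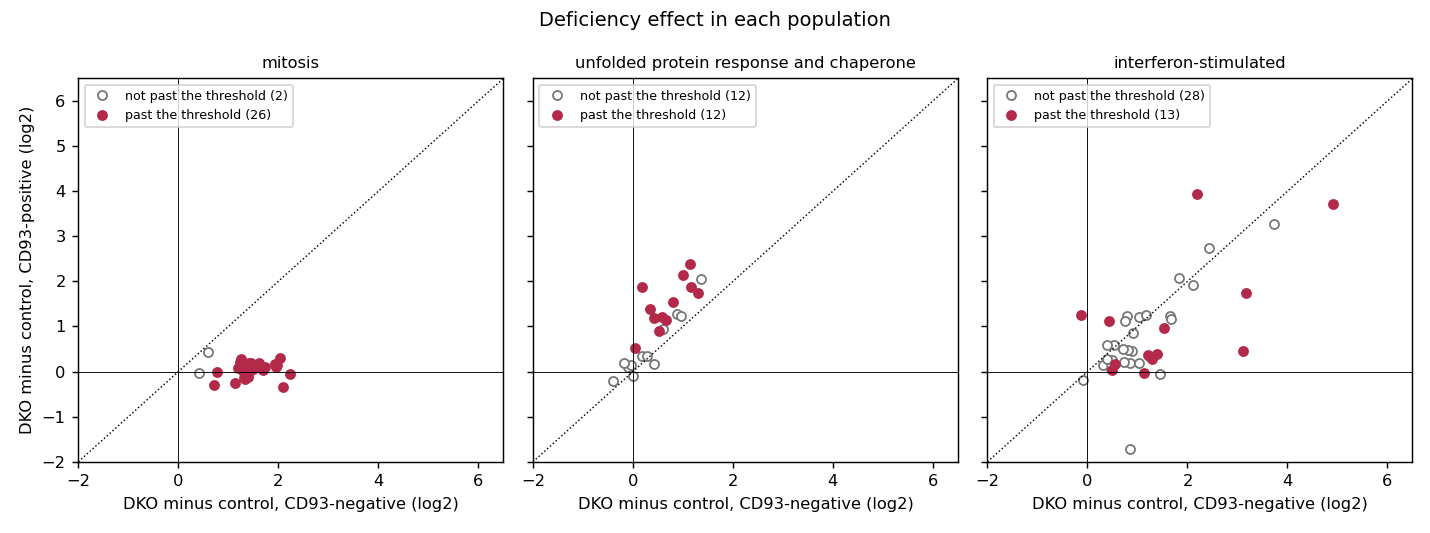
Deficiency effect (DKO minus control, log2) in CD93-negative (horizontal axis) and CD93-positive cells (vertical axis) for the tested genes of 3 lists, filled where limma called the difference of the effects. Mitosis genes lie near 0 on the vertical axis and mostly between 1 and 2 on the horizontal one, unfolded protein response genes lie mostly above the dotted line of equal effects, and interferon-stimulated genes lie on both sides of it.

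Genes of mitosis were high in CD93-positive cells of both genotypes and were raised by the deficiency in CD93-negative cells. Of 28 genes, 23 were higher in DKO CD93-positive than in DKO CD93-negative cells and none lower, with a median difference of 1.52. In controls 27 were higher, with a median of 2.98. The deficiency effect was more negative in CD93-positive cells for 26 of 28 genes and more positive for none, with a median difference of -1.43. It passed the test in CD93-negative cells for 26 genes, all increases, and in CD93-positive cells for none by limma (4 at an unadjusted p under 0.05), with median effects of 1.41 and 0.08. This count changed little with scaling or libraries: 24 with the authors' scaling, 20 without the 2 male control libraries and 26 without DKO CD93-positive replicate 3.

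Ccnb1, the cyclin that drives entry into mitosis, stood at 2.12, 1.30 and 1.15 in control and 8.64, 8.20 and 8.82 in DKO CD93-negative cells, and at 43.9, 37.0 and 40.7 in control and 45.7, 44.6 and 46.1 in DKO CD93-positive cells. The 2 CD93-positive groups were thus close to each other, far above control CD93-negative cells, with the DKO CD93-negative group between. Ccnb2, a second B-type cyclin, had 14.5, 18.1 and 19.2 in DKO CD93-negative and 63.9, 70.4 and 74.1 in DKO CD93-positive libraries, and a difference of effects of -2.29 (SE 0.15, adjusted p = 2.3e-05). Birc5 (survivin), Cdk1 and Ube2c, a ubiquitin conjugase of mitotic exit, differed by -1.74, -1.26 and -1.66 (adjusted p = 6.1e-04, 0.0017 and 1.7e-04). Cdca3, a trigger of mitotic entry outside the list, differed by -2.23 (SE 0.21, adjusted p = 1.7e-04). Within DKO cells the population difference ranged over the list from 2.28 for Ccnb1 to 0.32 for Cenpe, a kinetochore motor named here as the lowest member, which was not apart.

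DNA replication genes had the same order of populations. Unlike mitosis genes, part of them were also raised by the deficiency in CD93-positive cells. By limma, 23 of 27 were raised in CD93-negative and 14 in CD93-positive cells, with median effects of 0.78 and 0.27. With the authors' scaling these counts were 16 and 0. Of 27 genes, 17 were higher in DKO CD93-positive cells and none lower, against 23 in controls, with medians of 1.15 and 1.56. The effect was more negative in CD93-positive cells for 15 and more positive for none (3 with the authors' scaling, 9 without the 2 male control libraries). Rrm2, the inducible subunit of ribonucleotide reductase, stood at 4.40, 7.47 and 6.78 in control and 31.6, 31.0 and 31.2 in DKO CD93-negative cells and at 131, 127 and 109.5 (control) and 132, 130.3 and 139.8 (DKO) in the CD93-positive ones. Its difference of effects was -2.06 (SE 0.19, adjusted p = 1.7e-04). Uhrf1, which brings the maintenance methyltransferase to replicating DNA, stood at 24.8, 25.8 and 25.1 in DKO CD93-negative and 86.5, 79.3 and 94.4 in DKO CD93-positive cells, with -1.33 (SE 0.14, adjusted p = 3.7e-04). Cdc6, a loader of the replicative helicase, differed by -1.07 (SE 0.14, adjusted p = 0.0016), and Gins1, a helicase subunit, did not pass the test (adjusted p = 0.14). Red cell genes, which mark cells that divide as precursors, were also high in CD93-positive libraries (values below), and their part in these levels was not tested.

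Interferon-stimulated genes leaned to the DKO CD93-negative side. Of 41 genes, 13 were lower in DKO CD93-positive cells and 3 higher, with a median of -0.59, whereas in controls 4 were lower and 4 higher, with a median of -0.52. The deficiency effect was more negative in CD93-positive cells for 10 and more positive for 3 (3 and 1 with the authors' scaling, 15 and 1 without the 2 male control libraries). Gbp10, a guanylate-binding protein, stood at 17.5, 17.6 and 16.5 in DKO CD93-negative and 3.73, 4.09 and 3.45 in DKO CD93-positive cells, and in controls at 0.939, 0.928 and 1.18 (CD93-negative) and 0.287, 0.477 and 0.517 (CD93-positive). The effect was 3.18 in CD93-negative and 1.74 in CD93-positive cells, so the gene rose in both and by less in the second, with a difference of -1.44 (SE 0.14, adjusted p = 2.0e-04). Mx1, an antiviral GTPase, stood at 14.9, 13.9 and 12.7 (CD93-negative) and 2.79, 2.78 and 3.51 (CD93-positive) in DKO, with a difference of effects of -1.01 (SE 0.27, adjusted p = 0.048). Oas2, a sensor of double-stranded RNA, had a population difference of -1.59 in DKO and did not pass the test of the effect (adjusted p = 0.19).

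Socs1, which restrains cytokine signalling and is itself induced by interferon, had the largest difference of effects among the called members of the list. It stood at 5.19, 4.05 and 4.76 in control and 43.2, 48.5 and 52.0 in DKO CD93-negative cells, and at 25.1, 22.3 and 20.4 in control and 34.5, 29.4 and 30.2 in DKO CD93-positive cells. The difference of effects was -2.65 (SE 0.15, adjusted p = 8.4e-06), and -2.52 without the 2 male control libraries (adjusted p = 6.6e-04). Ly6a (Sca-1) went the other way. It stood at 102, 95.1 and 86.4 (control) and 418, 435 and 449 (DKO) in CD93-negative cells, and at 14.1, 16.3 and 27.2 (control) and 293, 293 and 305 (DKO) in the CD93-positive ones, a difference of effects of 1.75 (SE 0.25, adjusted p = 0.0021). DKO levels of Ly6a were thus lower in the CD93-positive population, while its ratio to controls was 15.5 there against 4.60 in the CD93-negative one. Rsad2 stood at 21.1, 21.5 and 9.46 in DKO and 87.8, 95.9 and 20.6 in control CD93-positive libraries. Its highest values were in the 2 male controls with the most globin, and its difference of effects did not pass the threshold (adjusted p = 0.051).

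The promoters of Irgm1 and Stat2 are shown because they carry the core of the interferon-stimulated response element and their genes had a more negative effect in CD93-positive cells. The letters searched, on both strands of the same windows, were GAAA, then 2 bases of any kind, then GAAA. They stood in 936 of 27025 genes (3.46%) and in 16 of the 29 listed genes that matched a window (55.2%). Of these 16, 4 had a more negative and 1 a more positive effect in CD93-positive cells, beside 10 and 3 of all 41 genes of the list. The letters were thus present on both sides of the comparison. The windows lie at chr11:48871421-48871670 (Irgm1, minus strand) and chr10:128270248-128270497 (Stat2, plus strand), in RefSeq, GRCm38.p6. Irgm1 encodes a GTPase of autophagy and Stat2 a subunit of the factor that binds this element, and both were picked after their values were seen. Their differences of effects were -0.56 and -0.46 (adjusted p = 0.022 and 0.005).
Irgm1: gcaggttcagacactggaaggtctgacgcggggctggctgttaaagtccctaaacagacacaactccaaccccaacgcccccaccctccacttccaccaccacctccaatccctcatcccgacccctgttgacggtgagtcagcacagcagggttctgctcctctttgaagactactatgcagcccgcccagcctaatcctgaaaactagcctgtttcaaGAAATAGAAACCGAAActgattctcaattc
Stat2: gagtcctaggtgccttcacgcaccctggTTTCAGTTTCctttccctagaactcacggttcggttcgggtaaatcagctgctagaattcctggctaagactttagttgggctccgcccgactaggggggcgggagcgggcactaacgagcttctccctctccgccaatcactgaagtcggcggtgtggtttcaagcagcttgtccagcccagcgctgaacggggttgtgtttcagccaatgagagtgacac
The capitals mark the matches.

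Genes of mature B cells were lower in DKO CD93-positive cells. Of 18 follicular genes, 15 were lower and none higher, the same counts as in controls, with medians of -1.75 and -2.001. Cr2, which encodes CD21, stood at 41.9, 42.4 and 41.0 in DKO CD93-negative and 1.88, 2.15 and 1.34 in DKO CD93-positive cells, and in controls at 120.3, 115 and 118 (CD93-negative) and 5.04, 5.67 and 5.74 (CD93-positive). Fcer2a, which encodes CD23, stood at 165, 164 and 158 (CD93-negative) and 13.8, 14.4 and 13.4 (CD93-positive) in DKO and at 399, 376 and 385 (CD93-negative) and 35.1, 33.0 and 30.4 (CD93-positive) in controls. The differences were -3.95 and -3.46 in DKO and -4.196 and -3.52 in controls, and neither effect passed the test of a difference (adjusted p = 0.32 and 0.66). Icosl, a ligand for T cell help, and Zfp318, which governs the splicing that yields IgD, were lower, at -3.73 and -2.98. The deficiency effect differed for 3 of the 18 genes, 2 more positive and 1 more negative in CD93-positive cells (none of either with the authors' scaling).

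MHC class II genes formed an even block. Of 14, 11 were lower in DKO CD93-positive cells (12 in controls) and none higher, with medians of -1.87 and -1.91. No member passed limma's test of the effect, and 2 had an unadjusted p under 0.05. Ciita, the master activator of these genes, stood at 90.6, 87.3 and 83.4 in DKO CD93-negative and 10.7, 12.01 and 9.63 in DKO CD93-positive cells. H2-DMb1, H2-DMb2 and H2-Ob, which edit the peptides that class II molecules carry, were lower, at -2.55, -2.40 and -2.32. The 2 H2-DMb genes are near-identical neighbours and their split is uncertain. Of 15 MHC class I presentation genes, 2 were lower, H2-Q7 at -1.002 log2 units and its activator Nlrc5 at -1.51. H2-Q7 stood at 193, 215 and 205 (CD93-negative) and 133, 88.1 and 88.5 (CD93-positive) in the DKO populations against 32.9, 32.2 and 28.6 (CD93-negative) and 13.0, 34.1 and 33.3 (CD93-positive) in controls, so that the genotypes were further apart than the populations. It belongs to a family of near-identical genes, and its value is uncertain for that reason.

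Of 28 B cell receptor signalling genes, 9 were lower in DKO CD93-positive cells and none higher, as in controls. Ptprc, the phosphatase CD45, stood at 288, 276 and 268 (CD93-negative) and 76.0, 74.0 and 65.2 (CD93-positive). Rasgrp3, an activator of Ras downstream of the receptor, was lower, at -2.60. Cd22, an inhibitory co-receptor, stood at 341, 325 and 322 (control) and 347, 333 and 324 (DKO) in CD93-negative cells and at 77.6, 81.5 and 86.7 (control) and 63.1, 65.8 and 57.1 (DKO) in the CD93-positive ones, with a difference of effects of -0.42 (SE 0.09, adjusted p = 0.016). Among 30 transcription factors of the lineage, 9 were lower and 1 higher. Bcl6, the germinal center repressor, and Rel, an NF-kB subunit, were lower, at -1.88 and -1.59 log2 units, as was Klf3 at -1.43. Mef2c was lower, at -1.49, and its effect differed by 0.29 (SE 0.07, adjusted p = 0.03), but by -0.16 with the authors' scaling, and it missed the threshold without the 2 male control libraries (adjusted p = 0.056). Of 10 pan-B markers, 2 were lower in DKO CD93-positive cells and none higher, with a median of -0.46. Their summed level did not overlap, at 2908 to 3249.8 in DKO CD93-positive and 3825 to 3865 in DKO CD93-negative libraries.

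Receptors that guide and position B cells leaned the same way, with 11 of 23 lower in DKO CD93-positive cells and 1 higher, with a median of -0.98. Ccr6 stood at 22.1, 23.7 and 25.4 (CD93-negative) and 2.63, 2.11 and 2.58 (CD93-positive), Ccr9 at 6.05, 6.65 and 5.56 (CD93-negative) and 0.560, 0.877 and 0.855 (CD93-positive). Cxcr5, which leads cells into follicles, and Gpr183, which leads them to the follicle's edge, were lower, at -1.81 and -1.93. The effect on Ccr6 differed by 0.67 (SE 0.13, adjusted p = 0.011), a call lost without the 2 male control libraries (adjusted p = 0.071). Of 16 marginal zone genes, 2 were lower and 1 higher in DKO CD93-positive cells, near the 7.58% and 9.14% of all genes. In controls 6 were lower and none higher. The deficiency effect was more positive in CD93-positive cells for 4 marginal zone genes and more negative for 1 (none of either with the authors' scaling). Notch2, the receptor that directs cells to this fate, stood at 31.0, 27.5 and 27.7 (CD93-negative) and 10.5, 8.37 and 5.99 (CD93-positive), and Il9r at 9.84, 11.1 and 10.3 (CD93-negative) and 0.380, 0.289 and 0.533 (CD93-positive). Asb2, a ubiquitin ligase subunit that Notch can induce, was the higher one. It stood at 3.71, 3.12 and 3.29 in control and 0.369, 0.757 and 0.723 in DKO CD93-negative cells and at 4.36, 5.13 and 5.77 (control) and 6.01, 6.06 and 5.38 (DKO) in the CD93-positive ones, so the decrease with the deficiency was seen in the first population and not in the second, with a difference of 1.61 (SE 0.18, adjusted p = 4.3e-04).

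Age-associated B cells are a CD11b- and T-bet-expressing activated type. Of 17 genes on their list, 11 were lower in DKO CD93-positive cells and none higher, with a median of -1.18 (-1.02 in controls, where 9 were lower and 2 higher). Itgam, which encodes CD11b and which myeloid cells carry too, stood at 0.954, 1.60 and 1.56 in control and 15.3, 17.3 and 15.6 in DKO CD93-negative cells and at 7.39, 6.00 and 6.39 (control) and 7.20, 7.08 and 6.18 (DKO) in the CD93-positive ones. The increase with the deficiency was thus seen in CD93-negative cells. In CD93-positive libraries, neutrophil marker sums were 1536 to 1940 in controls and 737 to 1148 in DKO. Macrophage and monocyte sums were 178 to 264 and 217 to 288, and the part of myeloid cells in Itgam was not tested. The difference of effects on Itgam was -2.81 (SE 0.17, adjusted p = 1.7e-05). Tbx21, which encodes T-bet, stood at 2.92, 3.44 and 4.202 (control) and 11.5, 11.5 and 11.8 (DKO) in the CD93-negative and at 0.548, 0.957 and 1.31 (control) and 3.16, 2.54 and 2.46 (DKO) in the CD93-positive groups and did not pass that test (adjusted p = 0.17). Fcrl5 did, at 1.14 (SE 0.20, adjusted p = 0.007), with 1.84, 1.67 and 2.34 in control and 5.76, 7.89 and 5.34 in DKO CD93-positive cells, but not without the 2 male control libraries (adjusted p = 0.074). Tlr7, the endosomal sensor of single-stranded RNA, had a population difference of -1.83 in DKO.

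Toll-like receptor genes had 7 of 21 members lower and none higher. Tlr1 stood at 41.1, 42.8 and 35.9 (CD93-negative) and 7.07, 6.45 and 5.601 (CD93-positive), and Tlr6 and Tlr9 were lower, at -1.26 and -1.38. The effects on Tlr6 and Tlr9 differed by 0.56 (SE 0.12, adjusted p = 0.022) and -0.66 (SE 0.18, adjusted p = 0.046), and the first call was lost without the 2 male control libraries (adjusted p = 0.13). Among 17 germinal center genes, 5 were lower and 1 higher, against 7.58% and 9.14% of all genes. Mybl1, a cell cycle factor of germinal center cells, stood at 0.864, 0.726 and 1.05 in control and 5.20, 5.66 and 4.34 in DKO CD93-negative cells and at 0.843, 1.11 and 1.06 (control) and 0.978, 0.414 and 1.05 (DKO) in the CD93-positive ones, a difference of -1.85 (SE 0.22, adjusted p = 7.1e-04). Il21r was lower, at -1.85 and did not pass (adjusted p = 0.74). Of 15 B-1 cell genes, 5 were lower and 2 higher, beside the same shares of all genes. Zbtb20 and Bhlhe40, transcription factors of B-1 and plasma cells, were lower, at -1.70 and -1.73, as was Ahnak at -1.40, and Cd5, which T cells also carry, was higher, at 1.61.

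Among 16 costimulatory and checkpoint genes, 7 were lower in DKO CD93-positive cells and 1 higher. Btla, an inhibitory receptor, stood at 151, 145 and 142 (CD93-negative) and 25.3, 27.2 and 22.2 (CD93-positive), Cd274 (PD-L1) at 14.99, 14.3 and 13.4 (CD93-negative) and 4.92, 3.39 and 8.20 (CD93-positive), and Havcr1 (TIM-1) at 11.1, 11.1 and 10.6 (CD93-negative) and 1.53, 1.63 and 1.92 (CD93-positive). None of these 3 passed the test of the effect (adjusted p = 0.21, 0.073 and 0.15). Of 13 TNF receptor and TRAF genes, 3 were lower and 2 higher, against 7.58% and 9.14% of all genes. Cd40, Traf1 and Traf3 were lower, at -1.08, -1.38 and -1.201, and Tnfrsf1a was higher by 1.24. Tnfrsf4 (OX40), typical of activated T cells, stood at 1.71, 1.58 and 2.40 in DKO CD93-negative, 6.01, 6.79 and 2.95 in DKO CD93-positive and 0.631, 0.681 and 1.32 in control CD93-positive cells. Its difference of effects was 1.66 (SE 0.36, adjusted p = 0.019), and 1.33 without the 2 male control libraries (adjusted p = 0.16).

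Of 16 genes of the BCL2 family, which decide cell survival, 3 were higher and 1 lower, against 9.14% and 7.58% of all genes. Bcl2 was lower in DKO CD93-positive cells, at 6.96, 5.96 and 5.70 against 19.9, 20.8 and 21.3. Bcl2l1 (Bcl-xL), which immature B cells and red cell precursors rely on, was higher, at 43.2, 44.5 and 39.1 against 3.72, 2.87 and 5.36, and stood at 87.0, 88.1 and 55.3 in control CD93-positive libraries, highest in the 2 male ones. The effects differed by 0.51 (SE 0.13, adjusted p = 0.037) and -1.63 (SE 0.40, adjusted p = 0.036), and neither passed without the 2 male control libraries (adjusted p = 0.17 and 0.24). Of the death-promoting members, Bmf stood at 4.70, 5.70 and 3.80 (CD93-negative) and 15.1, 18.6 and 15.9 (CD93-positive) in the DKO populations and Hrk at 0.200, 0.248 and 0.161 (CD93-negative) and 2.67, 2.27 and 2.06 (CD93-positive). Of 19 immediate early genes, 2 were higher and 2 lower, shares close to the 9.14% and 7.58% of all genes. Egr3, induced by receptor signals, stood at 54.9, 49.8 and 46.2 (CD93-negative) and 8.52, 7.56 and 4.03 (CD93-positive), and Nr4a1 (Nur77) was lower, at -1.13. Dusp1 and Ier3 were higher by 1.09 and 1.04, the latter at no more than 2.27 rescaled FPKM in DKO.

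Ribosomal, metabolic and DNA methylation genes were described in the same way, beside the 9.14% of all genes that were higher and the 7.58% that were lower. None of 41 cytosolic ribosomal protein genes was apart in DKO, with a median of 0.35, and none passed limma's test of the effect, 1 having an unadjusted p under 0.05. Rplp1 stood at 2455, 2771 and 2760.3 (CD93-negative) and 2967, 2961 and 2620.0 (CD93-positive), and Rpl28 at 2165, 2271 and 2300.2 (CD93-negative) and 3966, 4179.8 and 3873 (CD93-positive). Of 34 respiratory chain genes, 6 were higher and none lower, with a median of 0.77, close to the 0.80 of controls. Uqcrq, Cox7a2, Cox5b and Ndufa1, subunits of complexes III, IV, IV and I, were higher by 1.34, 1.197, 1.09 and 1.08. Of 27 ribosome biogenesis genes, 1, Nhp2, was higher by 1.11, while Npm1 and Fbl differed by 0.22 and 0.41. Among 18 glycolysis genes, Pfkm was higher (2.28) and Aldoc lower (-1.04). Among 13 heat shock genes, Hspa1a and Hspa1b, near-identical copies, were higher, at no more than 3.28 rescaled FPKM. In the list of DNA methylation genes, 1 of 21 was higher and 4 lower. Ogt, a glycosyltransferase that binds TET proteins, stood at 84.1, 85.1 and 79.0 (CD93-negative) and 24.9, 18.4 and 21.9 (CD93-positive), and Zbtb4, which binds methylated DNA, was lower, at -1.26.

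**Figure D4:**
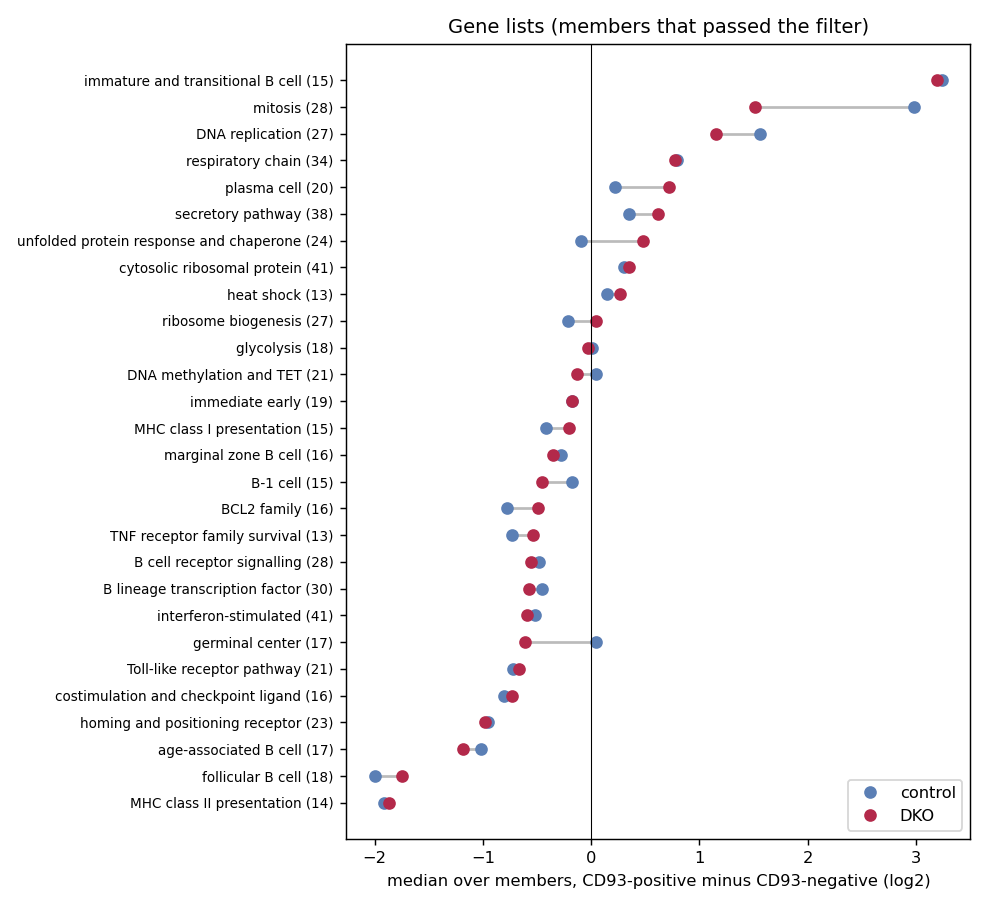
Median difference between CD93-positive and CD93-negative cells over the members that passed the filter in each of 28 gene lists, other cell types' markers not shown (horizontal axis, log2), in control and in DKO cells, with the number of members in brackets. Among the lists shown, the 2 genotypes lie furthest apart for mitosis (2.98 in controls, 1.52 in DKO).

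Markers of other cells separated the populations as well. All 12 red cell genes were higher in DKO CD93-positive cells (12 in controls), with a summed level of 5399.8 to 13542 rescaled FPKM against 179 to 203 in DKO CD93-negative libraries. Hba-a1, a globin, stood at 5128, 5166 and 2351 against 71.8, 61.4 and 97.7. The summed level was 12305 to 55606 in control CD93-positive libraries, lowest in the female one. Slc4a1, the anion exchanger of red cells, stood at 139.7, 147 and 66.3 in DKO CD93-positive and 560.5, 589 and 105 in control CD93-positive libraries, and Alas2, their heme synthase, at 61.0, 70.0 and 29.5 and 392, 399.7 and 84.3. The differences of effects were -3.11 (SE 0.79, adjusted p = 0.038) and -2.92 (SE 0.74, adjusted p = 0.039). Without the 2 male control libraries they were -1.48 and -1.44 (adjusted p = 0.14 and 0.18), and neither passed. Globin genes are near-identical copies, so the values of single copies are uncertain.

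Neutrophil genes followed. Of 9, 8 were higher in DKO CD93-positive cells (8 in controls), with sums of 737 to 1148 against 8.41 to 18.3. The sums were 1536 to 1940 in control CD93-positive libraries. In all DKO CD93-negative libraries 1 of the 9 was listed at 0. S100a8 stood at 431, 306 and 242 against 0.538, 4.96 and 3.45, S100a9 at 394, 321 and 239 against 1.79, 3.96 and 1.15, and the granule genes Ngp and Camp were higher by 6.03 and 5.91. Of 10 macrophage and monocyte genes, 7 were higher, with sums of 217 to 288 against 80.3 to 88.9. Lyz2 (lysozyme) stood at 145, 94.7 and 86.9 against 3.94, 3.53 and 4.31, and Csf1r, the receptor for the macrophage growth factor, C1qa and C1qc at no more than 16.5 in DKO. CD93 is itself carried by some myeloid cells. Of 12 T cell genes, 7 were higher, with sums of 185 to 279 against 146 to 149.8. Cd3g stood at 27.7, 31.7 and 16.5 against 5.72, 4.13 and 3.39, and Cd3d and Cd3e were higher by 2.005 and 2.05.

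Natural killer and dendritic cell genes had members lower and none higher. Of 10 natural killer genes 3 were lower in DKO CD93-positive cells, with sums of 49.1 to 83.3 against 94.5 to 104. They were Ncr1 (-2.49), Klre1 (-2.27) and Klrd1 (-1.49). The dendritic sums overlapped, at 682 to 826 against 639 to 729. Of 9 dendritic genes 3 were lower, Siglech at 1.29, 2.54 and 2.68 against 19.3, 16.7 and 18.8, with Clec9a and Cd209a lower, at -1.18 and -1.35 log2 units. Tal1, a factor of progenitors and red cell precursors, was the 1 of 4 progenitor genes that was higher, by 3.23. Platelet and stromal lists had no member apart. Itgb3, Pecam1 and Cdh5 differed by -0.64, -0.56 and -0.33, and Gp1ba did not pass the filter. The part of these other cells in the differences above was not tested.

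**Figure D5:**
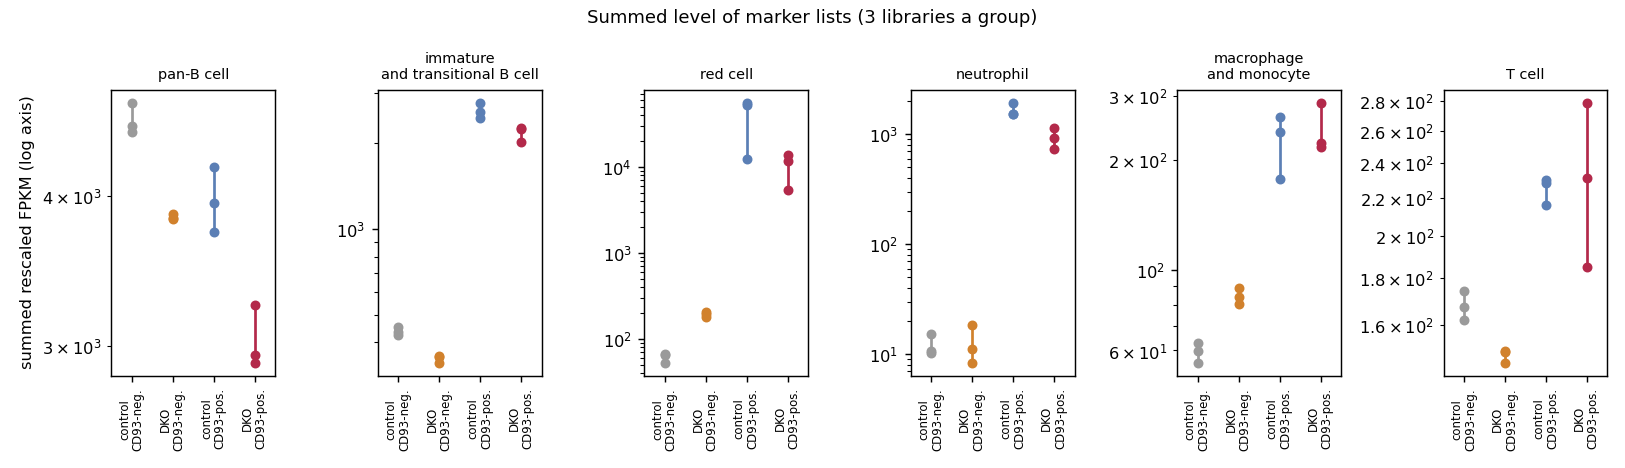
Summed rescaled FPKM of 6 marker lists (vertical axes, logarithmic) in the 3 libraries of each group, joined by a line from the lowest to the highest. Immature B cell, red cell, neutrophil and macrophage sums are higher in both CD93-positive groups, and the red cell sum of control CD93-positive cells spans 12305 to 55606.

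The 12 largest differences in each direction within DKO were drawn from a few of these groups. On the CD93-positive side they were 4 surrogate light chain and recombinase genes (Igll1, Vpreb1, Rag1 and Vpreb2), 4 neutrophil genes (S100a9, S100a8, Ngp and Camp) and 4 globin genes, led by Hbb-b1 at 7.56 log2 units. On the CD93-negative side, Eif2s3y, Ddx3y and Kdm5d are on the Y chromosome and follow the sex of the mice, at 0 to 0.0411 in DKO CD93-positive libraries. Mid1, which spans the pseudoautosomal boundary, stood at 91.4, 87.6 and 77.8 in DKO CD93-negative and 1.35, 1.85 and 12.2 in DKO CD93-positive libraries, the last of which lay apart from the others. Insl3 overlaps another gene and Pisd-ps1 is a pseudogene whose level ran from 1.54 to 57.1 within DKO CD93-negative libraries alone, so both are uncertain. The other 6 were Cr2, Fcer2a and Icosl, given above, with Ffar1, Lrrk2 and Gimap8. Ffar1, a fatty acid receptor, stood at 60.0, 57.8 and 54.6 (CD93-negative) and 4.17, 4.17 and 5.04 (CD93-positive). Lrrk2, a kinase, stood at 45.1, 43.1 and 41.6 (CD93-negative) and 4.103, 4.21 and 3.87 (CD93-positive), and Gimap8, a GTPase of lymphocyte survival, at 86.7, 86.1 and 82.4 (CD93-negative) and 11.97, 9.18 and 7.80 (CD93-positive). The effects on Ffar1 and Lrrk2 were more negative in CD93-positive cells, with differences of -0.70 (SE 0.15, adjusted p = 0.017) and -0.82 (SE 0.09, adjusted p = 4.7e-04).

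Of the 426 genes with a more positive effect in CD93-positive cells, 183 were raised in CD93-positive cells and not called in CD93-negative ones, and 126 were lowered in CD93-negative cells and not called in CD93-positive ones. Another 59 were raised in both, 26 lowered in both, and 26 raised in the first and lowered in the second. Slfn1, a Schlafen gene of quiescent lymphocytes, had the largest difference. It stood at 20.5, 17.9 and 19.0 in control and 0.945, 1.14 and 1.19 in DKO CD93-negative cells, and at 3.14, 3.27 and 4.31 (control) and 4.56, 3.28 and 3.61 (DKO) in the CD93-positive ones. Its level thus fell with the deficiency where it was high, and the difference was 3.34 (SE 0.18, adjusted p = 6.5e-06). Magi1, a scaffold of cell junctions, stood at 6.601, 6.24 and 4.87 in control CD93-negative cells and at no more than 0.561 in every other library, with 2.84 (SE 0.21, adjusted p = 3.9e-05).

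Folr4 (Juno) stood at 4.61, 4.25 and 5.47 in DKO CD93-negative, 22.2, 29.6 and 20.5 in DKO CD93-positive and 2.68, 3.44 and 4.06 in control CD93-positive cells, a difference of 1.82 (SE 0.22, adjusted p = 6.8e-04). Oosp1 stood at 3.04, 1.68 and 2.68, 7.45, 6.96 and 8.78 and 1.60, 0.775 and 1.01 in the same order, with 1.77 (SE 0.27, adjusted p = 0.0032). Both are known from oocytes, and Folr4 also from regulatory T cells. Ccl3, a chemokine, stood at 5.598, 6.04 and 4.01 in DKO and at no more than 0.329 in control CD93-positive cells, and its effect differed by 1.51 (SE 0.35, adjusted p = 0.025), or by 1.33 without the 2 male control libraries (adjusted p = 0.16). Serpina1a stood at 4.02, 4.06 and 4.03 (CD93-negative) and 61.7, 49.9 and 39.0 (CD93-positive) in DKO and at 7.45, 6.95 and 6.26 (CD93-negative) and 30.4, 30.4 and 22.8 (CD93-positive) in controls, with 1.46 (SE 0.22, adjusted p = 0.0025). It has near-identical copies, and its value is uncertain.

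Of the 477 genes with a more negative effect in CD93-positive cells, 241 were raised in CD93-negative cells and not called in CD93-positive ones, and 113 were lowered in CD93-positive cells and not called in CD93-negative ones. Another 74 were raised in both and 38 raised in the first and lowered in the second. Reln, the extracellular protein reelin, stood at 0.482, 0.265 and 0.470 in control and 1.85, 1.52 and 1.91 in DKO CD93-negative cells and at 16.1, 19.3 and 16.2 (control) and 6.25, 6.35 and 5.38 (DKO) in the CD93-positive ones, opposite directions in the 2 populations, with -2.35 (SE 0.16, adjusted p = 2.3e-05). Several of the 12 largest were red cell genes. Beta-s, a globin, differed by -3.42 (SE 0.69, adjusted p = 0.014), and Tmcc2, abundant in red cells, by -3.16 (SE 0.82, adjusted p = 0.042). Without the 2 male control libraries the values were -2.12 and -1.54 (adjusted p = 0.073 and 0.21). Fam46c, of the plasma cell list, stood at 66.7, 77.8 and 10.98 in control CD93-positive cells, low in the female library, and at 43.9, 36.4 and 38.6 in DKO ones. It differed by -3.40 (SE 0.76, adjusted p = 0.024), and by -1.66 without the male libraries (adjusted p = 0.0019).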

How the data were processed

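RNA of splenic B cells was sequenced from a strand-specific library kit. Per the submitters' processing notes the tools were TopHat2 2.0.8 and Bowtie2 2.1.0, with Cufflinks 2.1.1, on the mm9 build. The deposited values are FPKM, which the authors computed for each of 2 tables, per the file headers, and the counts behind them were not used here, and sequencing depth is therefore unknown. In the CD93-positive table, 6 columns repeat the values of others and were not used.

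The tables were joined by gene symbol (23234 genes, 25 of them with names changed to dates), and each library was scaled to a common upper quartile (75th percentile). Values were taken as log2(FPKM + 1), with a filter of at least 1 FPKM in at least 3 libraries. The difference of the deficiency effect was fitted with limma 3.58.1 (R 4.3.3) over all 4 groups, with a mean-variance trend and 8 residual degrees of freedom. All adjusted p-values come from this limma fit (Benjamini-Hochberg). On simulated data with 200 changed genes of 11881, the fit recovered 84% of those changed by 1 log2 unit and 96% of those changed by 2, with 18 false calls among 198. The simulated noise was independent between libraries, and only genes with a mean above 2 log2 units were changed. Sex, red cell content, scaling and shared replicates were not simulated, so these rates do not cover them. The labels do not say whether same-numbered libraries share animals or days, and the main fit held no replicate block. Correlations of same-numbered deviations within the tables ran from -0.12 to 0.22. They were not set beside those of differently numbered libraries, so they cannot decide whether the samples are paired. With a replicate block within each table, 387 of the 903 calls were kept.

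The members and the 28 gene lists and 10 marker lists were chosen with earlier results of these data known. Of the listed genes, 10 symbols were not found in the tables. The text names the markers given for the comparison, the Tet genes, Fcer2a and Cr2, the 12 largest differences in each direction with a group mean of at least 5 FPKM for the population difference and for the tested effect, and up to 4 members apart per list (up to 2 by level where fewer than 2 were apart). Predicted, clone, small RNA and receptor segment names were left out, members named outside this rule are marked, and some genes that the rule names are not reported here. Alternatives covered the pseudocount, filter, scaling, trend, weights, a replicate block, a sex term and leaving out each library.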

Additional observations from a re-analysis of the deposited data

Results flagged for a closer look

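For the genes below the deficiency effect differed between CD93-positive and CD93-negative cells by limma's test of that difference, fitted over all 12 libraries. They are among the genes with the largest differences in each direction. All values are differences of effects on the log2 scale, positive where the effect was more positive in CD93-positive cells. Among lymphocyte and surface genes they were 3.34 for Slfn1, 1.75 for Ly6a, 1.66 for Tnfrsf4, 1.82 for Folr4 and -2.65 for Socs1. Itgam, which myeloid cells carry too, had -2.81. Genes of secretory cells had 2.27 for Fkbp11, 1.83 for Derl3 and 1.70 for Pdia4, or 2.65, 1.37 and 1.47 without the 2 male control libraries. Fam46c, of the plasma cell list, had -3.40, or -1.66 without those libraries. Among control CD93-positive libraries its level was low in the female one. Genes of the cell cycle had -2.42 for Mki67, -2.29 for Ccnb2 (-2.285 before rounding) and -2.23 for Cdca3. Red cell genes had -3.42 for Beta-s, -3.16 for Tmcc2, -3.11 for Slc4a1 and -2.92 for Alas2. Without the 2 male control libraries these were -2.12, -1.54, -1.48 and -1.44 in the same order. With a sex term in the limma fit, Tmcc2, Slc4a1 and Alas2 missed the threshold (adjusted p = 0.16, 0.096 and 0.14). So did Tnfrsf4 and Ccl3 (adjusted p = 0.12 and 0.12). The remaining genes were Magi1 at 2.84, Oosp1 at 1.77, Asb2 at 1.61, Ccl3 at 1.51, Serpina1a at 1.46 and Reln at -2.35.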

How the results depend on the processing

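The count of genes higher in DKO CD93-positive cells was 503 with a pseudocount of 5 and 616 with a filter of 5 FPKM, and the count of lower genes was 377 with a pseudocount of 5. In controls, the pseudocount of 5 gave 655 higher and 467 lower, and the authors' scaling 1949 and 565. Leaving out 1 library gave 1022 to 1068 higher and 810 to 1005 lower genes in DKO, and 1163 to 1223 and 1060 to 1213 in controls. The tested effect moved more. Genes with a more positive effect in CD93-positive cells numbered 270 with no filter, 18 with the authors' scaling, 150 with the replicate block, 232 with a sex term and 183 without the 2 male control libraries. Those with a more negative effect numbered 159, 265 and 272 with the authors' scaling, the replicate block and without the male libraries. Leaving out 1 library gave 232 to 487 and 322 to 715, over the genes kept with all libraries, a choice made after seeing the data. The count of more positive effects moved by over 1.5 times without control CD93-negative replicate 2 (266), DKO CD93-negative replicate 1 (250), 2 (232) or 3 (244), or control CD93-positive replicate 1 (251) or 2 (283).

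Of the 903 calls, 170 were kept with the authors' scaling, 387 with the replicate block and 449 with the sex term. None took the opposite direction as a call in any of the 24 alternatives. The sex term gave the same effect sizes as the fit without the 2 male control libraries. Those 2 settings are therefore not independent, and neither separates sex from population. Among named genes, 3463 values of the effect stayed on their side of the threshold, 125 of them with a changed sign but no call, 245 lost the call and 68 gained it. Called values changed sign in 3 cases: Manf to -0.0076 (-0.01) and Mef2c to -0.16 with the authors' scaling, and Prg2 to 0.12 with a pseudocount of 5. The cause of these changes was not tested. Depth is not known from FPKM, so low values carry no counting error here.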
